A study of Mus musculus with 6 samples.

Results

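The melanocyte pigment genes of the mouse cochlea were followed in bulk RNA from Kir2.1-OE mice, which overexpress the K+ channel Kir2.1, an inward rectifier, and from littermate controls. The set held 9 genes chosen by name: Dct, Tyr, Tyrp1, Pmel, Mlana and Slc45a2, whose proteins work in the pigment organelle, and Mitf, Kit and Ednrb, which govern the melanocyte lineage. All 9 were among the 24411 gene symbols counted in each library. Of the 9, 8 had enough reads to be tested. Dct, Tyr and Slc45a2 were 3.52-fold, 4.21-fold and 4.77-fold lower in Kir2.1-OE than in control pools, whereas Tyrp1 did not differ beyond the spread between pools, and Mitf was 1.56-fold higher. Tyr and Slc45a2 rested on few reads in Kir2.1-OE pools, and Tyr missed the thresholds in 4 alternative analyses. Mitf missed them in 6, among them that with transcript length and GC content taken into account.

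Kir2.1-OE mice were compound heterozygotes (Otof rtTA+/-; Kir2.1+/-), in which the doxycycline (DOX)-dependent activator rtTA is driven by the Otof promoter and the tetO-Kir2.1-IRES-tau-lacZ transgene responds to it. The controls (Otof rtTA+/-; Kir2.1+/+, labelled WT) carried the same activator without the responder, so all mice of both groups were heterozygous for Otof rtTA. All mice were on the C57BL/6N background and had 0.5 mg/ml DOX in the drinking water. Otof is expressed mainly in the inner hair cells of the cochlea, so the transgene was aimed at a cell type other than the melanocyte. The study microdissected the sensory epithelium at P9 and pooled 8 cochleae from 4 mice for each library, with 3 pools per group, so the replicate is a pool and not a mouse.

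Melanocytes are pigment cells of neural crest origin. In the cochlea they form the intermediate cell layer of the stria vascularis, a tissue of the lateral wall outside the sensory epithelium, and their K+ channels are known for their part in the endocochlear potential. The transcription factor MITF directs the pigment programme. Signals through the receptor tyrosine kinase KIT and the endothelin receptor type B (EDNRB) are needed for the migration and survival of their precursors. Within the melanosome, tyrosinase (TYR) carries out the first steps of melanin synthesis, dopachrome tautomerase (DCT) and tyrosinase-related protein 1 (TYRP1) act on later intermediates, PMEL builds the fibrils on which pigment is laid down, and the transporter SLC45A2 takes part in the control of melanosome pH.

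The letters TCATGTG, known as the M-box, are a sequence bound by MITF. The 250 bases before the annotated start of transcription (RefSeq, GRCm38.p6 build) were searched for them on both strands in the 6 members with an entry, Dct, Tyr, Tyrp1, Mitf, Kit and Ednrb. Of all 32851 windows of this length, 3.25% held the letters. They were found in Dct, Tyr and Tyrp1, and in none of the windows of Mitf, Kit and Ednrb. The matches are printed below with 11 bases on either side, read along the strand of the gene, with the searched letters in capitals; they are shown because 3 of the members that make melanin share them. The first Dct match lies on the opposite strand and therefore reads CACATGA.
Dct, 232 bases before the start, chr14:118052461-118052489, minus strand: cttggctgggaCACATGAgcccaataaag
Dct, 151 bases before the start, chr14:118052380-118052408, minus strand: tgcacttagggTCATGTGctaacaaagag
Tyr, 22 bases before the start, chr7:87493517-87493545, minus strand: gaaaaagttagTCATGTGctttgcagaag
Tyrp1, 47 bases before the start, chr4:80834155-80834183, plus strand: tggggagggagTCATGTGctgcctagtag
The RefSeq start of Tyrp1 lies downstream of the first base of its GENCODE span given with its values, so this match lies before the one and within the other. The 9 letters TCATGTGCT, which contain the M-box, were shared by the second Dct match and those of Tyr and Tyrp1, and were present in 0.335% of all windows. The shorter CATGTG, which the M-box also contains, was present in 12.3% of them. A match of letters is a description of the window and not a measurement of binding. Dct and Tyr, which were lower in Kir2.1-OE pools, had this match in common with Tyrp1, which was not.

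Each library held between 35430940 and 41205047 reads assigned to genes. Values are given as normalized counts, the rounded reads of a library divided by its relative library size after TMM scaling, and as log2 fold changes of Kir2.1-OE against control with their standard errors (SE). All adjusted p-values were obtained with the quasi-likelihood test of edgeR and adjusted by Benjamini-Hochberg over the 15303 genes tested. A gene was called lower or higher at an adjusted p under 0.05 with a fold change over 1.5. An exact permutation test of 3 pools against 3 cannot go below 0.10 for any gene. Kcnj2, which encodes Kir2.1, followed the labels, with between 2213 and 3813 normalized counts in Kir2.1-OE and between 226.0 and 236 in control pools. The tissue is labelled cochlea, and all 8 hair cell and all 7 supporting cell genes read as a check of it passed the count filter.

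Dct (ENSMUSG00000022129.4; mm10, chr14:118012790-118052244, minus strand) had the most reads of the 3 enzyme genes. Its normalized counts were 87.2, 149.9 and 183 in the Kir2.1-OE pools and 591, 476 and 410.2 in the control pools, always in the order of replicates 1, 2 and 3. The highest Kir2.1-OE pool was thus below the lowest control pool. The means were 140.1 ± 48.6 (SD, n = 3 pools) and 492 ± 91.5 (SD, n = 3), and the log2 fold change was -1.81 (SE 0.246, adjusted p = 0.00044, edgeR). Dct ranked 18 from the lowest of the 15303 log2 fold changes. It was called lower in each of the 20 alternative analyses, with log2 fold changes between -2.06 and -1.58 when 1 pool was left out.

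Tyr (ENSMUSG00000004651.6; chr7:87424771-87493512, minus strand) encodes the enzyme without which no melanin is made. Its normalized counts were 4.11, 6.995 and 30.7 in the Kir2.1-OE pools and 87.3, 43.6 and 44.8 in the controls. Kir2.1-OE replicate 3 and control replicate 1 were the high pools of their groups, and the groups did not overlap. The Kir2.1-OE values rest on 4, 7 and 29 reads, and the 95% Poisson interval of the lowest was 1.09 to 10.2 reads, which covers counting error only. The log2 fold change was -2.07 (SE 0.606, adjusted p = 0.018, edgeR), the widest error of the members tested. The adjusted p rose to 0.062 without Kir2.1-OE replicate 1, to 0.053 without Kir2.1-OE replicate 2 and to 0.062 without control replicate 1, with log2 fold changes of -1.65, -1.77 and -1.67. Without Kir2.1-OE replicate 3, the fold change was -3.38.

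Tyrp1 (ENSMUSG00000005994.14; chr4:80834123-80851719, plus strand), the close relative of Tyr and Dct, had 20.5, 33.0 and 40.2 normalized counts in the Kir2.1-OE pools and 24.1, 20.9 and 40.7 in the controls. The 2 groups spanned almost the same range. The log2 fold change was 0.13 (SE 0.372, adjusted p = 0.79, edgeR), with a 95% interval from -0.70 to 0.97. That interval holds no value as low as the fold change of Dct, Tyr or Slc45a2, but it leaves room for a change of more than 1.5-fold either way.

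**Figure D1:**
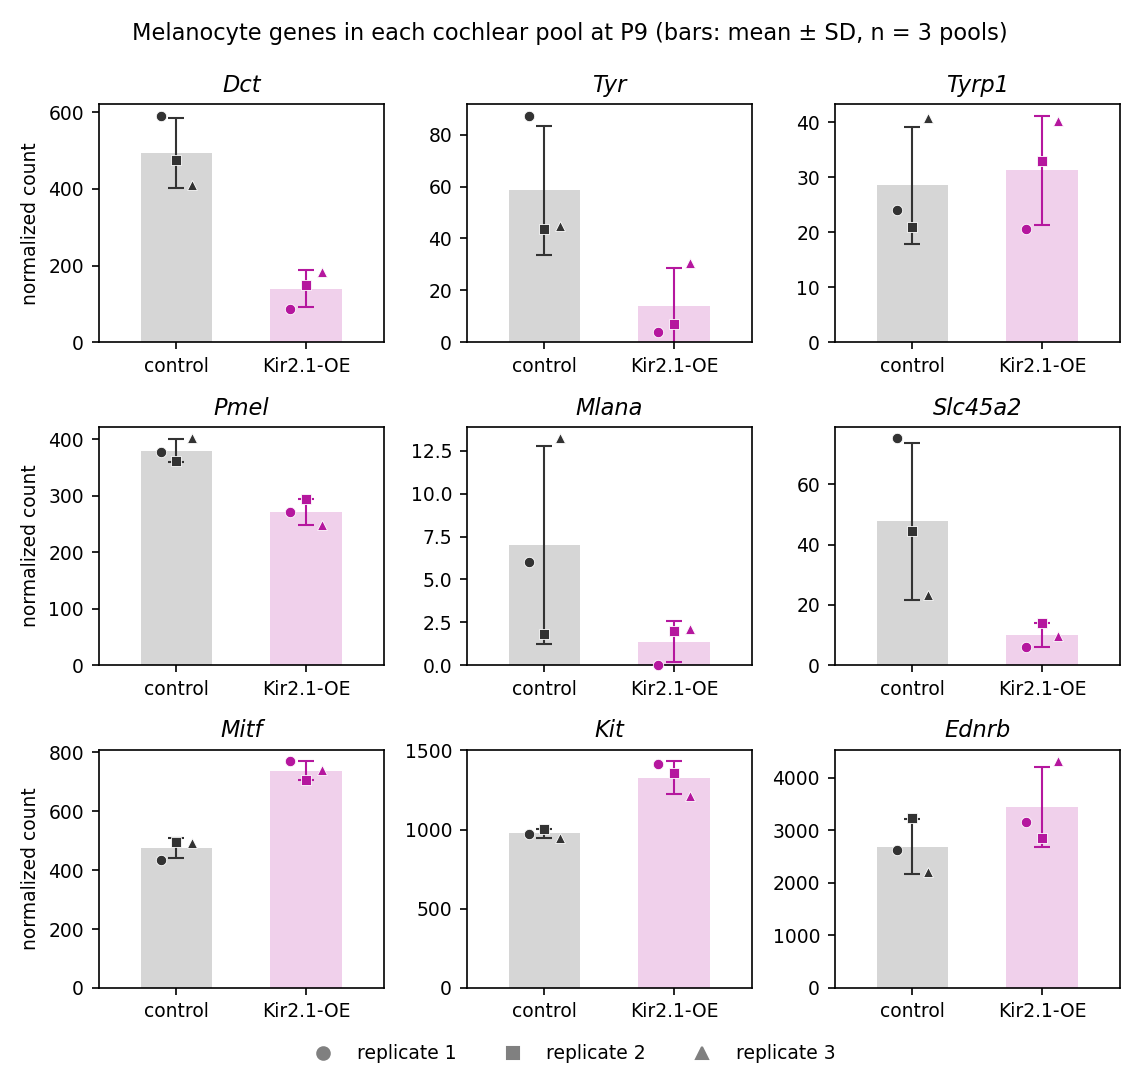
Normalized counts (vertical axes, each from 0) of the 9 genes in control (grey) and Kir2.1-OE (magenta) pools at P9. Points are pools, marked by replicate number, and bars with lines are the mean ± SD of 3 pools. Dct, Tyr, Slc45a2 and Pmel were lower in all 3 Kir2.1-OE pools, Mitf and Kit were higher in all 3, and Tyrp1, Ednrb and Mlana overlapped.

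Slc45a2 (ENSMUSG00000022243.10; chr15:11000721-11029233, plus strand) had 6.16, 14.0 and 9.52 normalized counts in the Kir2.1-OE pools and 75.2, 44.5 and 23.4 in the controls. Its Kir2.1-OE values rest on 6, 14 and 9 reads. The 95% Poisson interval of the lowest was 2.20 to 13.1 reads, which covers counting error only. The controls spread more than the Kir2.1-OE pools, with control replicate 1 the highest and control replicate 3 the lowest, and no control value fell into the Kir2.1-OE range. The log2 fold change was -2.25 (SE 0.496, adjusted p = 0.0046, edgeR), rank 8 from the lowest of all genes tested. Slc45a2 was called lower in all 19 alternatives that gave a value, with a log2 fold change of -1.77 without control replicate 1. It passed the count filter through the control pools, so its rank and these calls are no separate support. With at least 10 counts in every library it gave no value.

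Pmel (ENSMUSG00000025359.10; chr10:128704195-128720238, plus strand), the gene of the fibril protein, had 271, 294 and 249 normalized counts in the Kir2.1-OE pools and 377, 361 and 401 in the controls. The groups did not overlap, and the spread within each was small. The log2 fold change of -0.48 (SE 0.118, adjusted p = 0.0076, edgeR) corresponds to 1.40-fold, under the threshold of 1.5. Pmel overlaps Cdk2 by 837 bases and Dgka by 105 bases, both on the opposite strand. No strand setting is stated for the counting, so reads of those stretches cannot be assigned with certainty.

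Mlana (ENSMUSG00000024806.4; chr19:29697824-29708634, plus strand), a widely used marker of melanocytic cells, was close to the limit of detection. The Kir2.1-OE pools held 0, 2 and 2 reads and the control pools 6, 2 and 13 reads. At a count of 0 the share of Mlana in that pool may be as high as 8.3e-06%, which is what 3 reads would make. The groups overlapped, and Mlana did not pass the filter on low counts. When that filter was dropped, the log2 fold change was -2.24 (SE 1.03, adjusted p = 0.11, edgeR), so a difference was not detectable at this depth.

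The regulators of the lineage were not called lower. Mitf (ENSMUSG00000035158.15; chr6:97807052-98021349, plus strand) had 769.8, 707 and 739 normalized counts in the Kir2.1-OE pools and 435, 494 and 493 in the controls. All Kir2.1-OE pools were above all control pools, with a log2 fold change of 0.64 (SE 0.0939, adjusted p = 0.00063, edgeR), just past the 1.5-fold threshold. It was 0.58 without control replicate 1 and 0.55 with upper quartile scaling, both under that threshold.

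Kit (ENSMUSG00000005672.12; chr5:75574916-75656722, plus strand) had 1413, 1357 and 1210.2 normalized counts in the Kir2.1-OE pools and 975.2, 1007 and 949.7 in the controls. Again no pool of the 2 groups overlapped, but the log2 fold change of 0.44 (SE 0.0823, adjusted p = 0.0020, edgeR) was 1.36-fold and not called. Ednrb (ENSMUSG00000022122.15; chr14:103814625-103844402, minus strand) had 3161, 2856 and 4316 normalized counts in the Kir2.1-OE pools and 2623, 3239 and 2213 in the controls. Kir2.1-OE replicate 3 was the highest, and control replicate 2 was above 2 of the 3 Kir2.1-OE pools. The log2 fold change of Ednrb was 0.36 (SE 0.169, adjusted p = 0.11, edgeR), with a 95% interval from -0.02 to 0.73. Neither KIT nor EDNRB is confined to melanocytes, and Mitf is also transcribed outside the lineage.

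Over the 8 members tested, 3 were called lower and 1 higher. Across all genes tested, 5.08% were called lower and 15.5% higher, so the single higher call among the members is close to the background and the 3 lower calls are above it. Tyr and Slc45a2, however, passed the count filter through the control pools. With at least 10 counts in every library they gave no value, and of the members Dct alone was called lower. The members were also chosen with earlier results of these data known, so the comparison is a description only. Of the calls over all genes 75.2% were higher with TMM scaling and 57.9% with upper quartile scaling. The groups did not overlap, with Kir2.1-OE lower, for 4 members (Dct, Tyr, Slc45a2 and Pmel), against 29.9% of all genes, and with Kir2.1-OE higher for 2 (Mitf and Kit), against 31.7%. The median log2 fold change was -0.18 over the members tested and 0.01 over all genes tested. In bulk tissue, fewer cells of a type and less RNA per cell cannot be told apart.

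**Figure D2:**
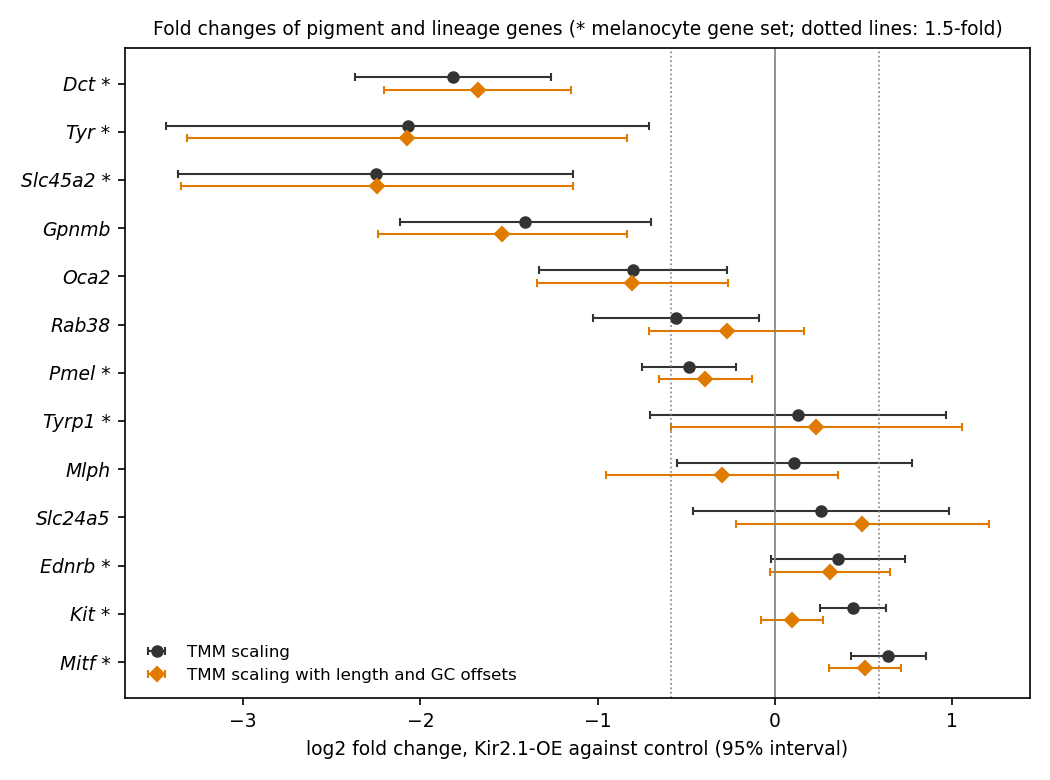
Log2 fold changes (horizontal axis) of the members, marked with an asterisk, and of other melanocyte-enriched genes, with TMM scaling alone (circles) and with offsets for transcript length and GC content (diamonds). Lines are 95% intervals and dotted lines mark 1.5-fold. Dct, Tyr and Slc45a2 stay below the left dotted line in both fits, Tyrp1 spans 0 in both, and Kit moves from 0.44 to 0.10.

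In these libraries the fold change of a gene went with the length of its transcript. The median log2 fold change was -0.50 over 796 genes with a longest coding transcript under 1000 nt, -0.03 over 6167 genes of 2000 to 4000 nt, 0.33 over 4393 genes of 4000 to 8000 nt and 0.82 over 859 longer genes. Dct, Tyrp1, Pmel and Slc45a2 belong to the class of 2000 to 4000 nt, in which the central 90 percent of genes lay between -0.55 and 0.83. Tyr, Mitf, Kit and Ednrb belong to the class of 4000 to 8000 nt, with limits of -0.34 and 1.25. Dct, Slc45a2 and Tyr were thus far below the lower limit of their class, while Mitf, Kit and Ednrb were near the median of theirs. Other genes of 2000 to 4000 nt also lay below Dct, 1 of them at -2.09. The classes were not matched for read number, and Tyr and Slc45a2 rest on few reads.

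With the trend on length and GC content of each library taken into the model as offsets, 3.18% of all genes were called lower and 5.62% higher. Dct, Tyr and Slc45a2 were again the members called lower, with log2 fold changes of -1.68 (SE 0.235), -2.08 (SE 0.556) and -2.24 (SE 0.495). No member was called higher. Mitf had a log2 fold change of 0.51 (SE 0.0910, adjusted p = 0.0042, edgeR), and that of Kit was 0.10 (SE 0.0779, adjusted p = 0.37, edgeR). Pmel had -0.39 (SE 0.117, adjusted p = 0.030, edgeR). The lower calls of Dct, Tyr and Slc45a2 thus held with the offsets, whereas the 1.36-fold higher value of Kit did not.

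**Figure D3:**
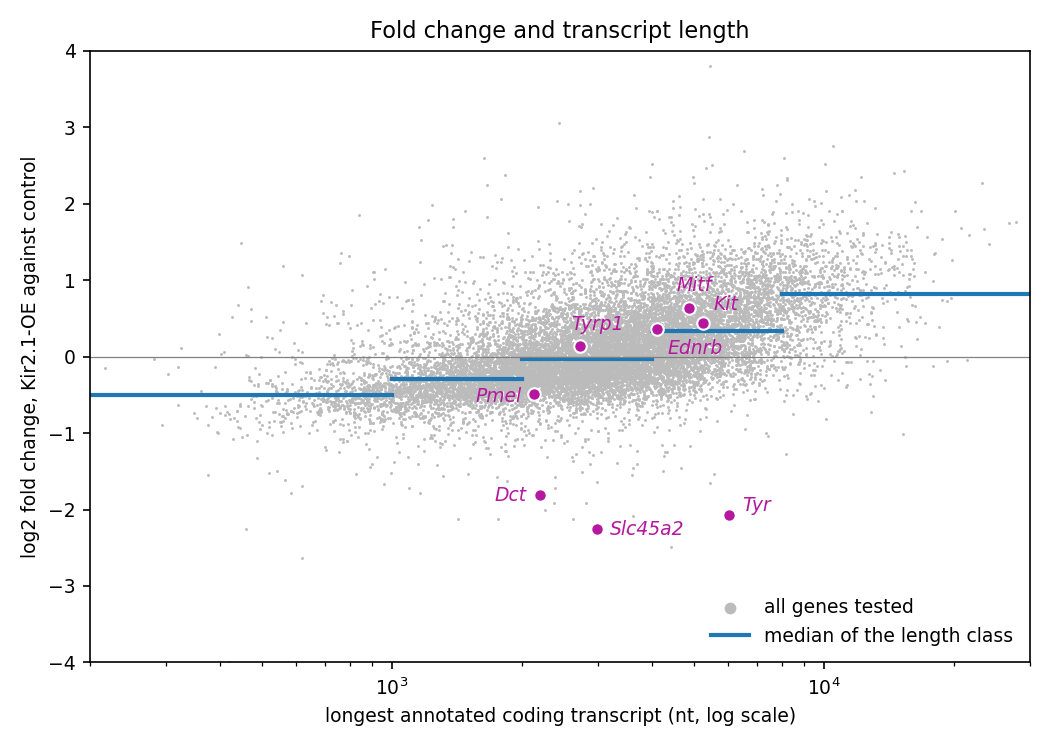
Log2 fold change (vertical axis) against the longest annotated coding transcript (horizontal log axis, nt) of all genes tested (grey), with the median of each length class (blue) and the 8 members tested (magenta). 2 genes lie outside the plotted range. Medians climb from -0.50 to 0.82, Dct, Tyr and Slc45a2 lie far below the median of their length class, and the other 5 lie closer to it.

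Ratios of members within a pool do not depend on the scaling between libraries. They are not free of the trend with transcript length, because Mitf and Kit have longer transcripts than Dct and Pmel. With the offsets the log2 fold change of Kit went from 0.44 to 0.10 and that of Mitf from 0.64 to 0.51. For every 100 Mitf reads there were 11.3, 21.2 and 24.7 Dct reads in the Kir2.1-OE pools and 135.7, 96.3 and 83.3 in the controls. The ratio was lower in all 3 Kir2.1-OE pools (two-sided exact permutation test, p = 0.10, which is as small as 3 against 3 allow). Dct was lower and Mitf higher without overlap, so this outcome was fixed by their own values and is no separate result. For every 100 Kit reads there were 6.17, 11.05 and 15.1 Dct reads against 60.6, 47.3 and 43.2. Pmel also stood lower against Mitf, with 35.2, 41.6 and 33.6 Pmel reads per 100 of Mitf in the Kir2.1-OE pools and 86.6, 73.0 and 81.4 in the controls.

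Ratios were also read between pigment genes. For every 100 Dct reads there were 23.5, 22.0 and 22.0 Tyrp1 reads in the Kir2.1-OE pools and 4.07, 4.39 and 9.93 in the controls (two-sided exact permutation test, p = 0.10). Tyrp1 and Dct are both enzymes of the same organelle, and their reads did not keep the same proportion. Per 100 Pmel reads the Dct reads numbered 32.2, 51.0 and 73.6 against 156.6, 132.0 and 102.3. In all, 7 ratios were computed, and none overlapped between the groups. For those against Mitf or Kit this was fixed in advance, because their genes differed singly without overlap and in opposite directions. Those of Dct with Tyrp1 and with Pmel reuse the Dct values, which were lower without overlap, and are no separate result. The share among ratios of other genes was not computed.

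Levels were compared between genes after division by transcript length, as reads per kb of transcript scaled to the same total in each library. In the control pools the order of the mean levels was Ednrb (38.0 ± 7.82, SD, n = 3), Dct (12.9 ± 2.39), Kit (10.8 ± 0.460), Pmel (10.3 ± 0.430), Mitf (5.63 ± 0.432), Slc45a2 (0.927 ± 0.503), Tyrp1 (0.607 ± 0.220), Tyr (0.560 ± 0.235) and Mlana (0.446 ± 0.364). The ranges of the pools overlapped between each pair of neighbours from Dct to Pmel and from Slc45a2 to Mlana. They did not overlap between Ednrb and Dct, Pmel and Mitf, or Mitf and Slc45a2. In the Kir2.1-OE pools the level of Dct was 4.24 ± 1.38, below Pmel at 8.54 ± 0.709 and Mitf at 10.2 ± 0.770. Dct, second of the 9 genes in control pools, thus stood behind Ednrb, Kit (17.0 ± 1.75), Mitf and Pmel in Kir2.1-OE pools. These levels were not corrected for the trend of fold change with length, and Ednrb, Kit and Mitf have longer transcripts than Dct.

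Other genes enriched in melanocytes were read from a list of 9, of which 5 passed the count filter. Gpnmb, a melanosomal glycoprotein that is also made by macrophages, had 39.0, 48.0 and 42.3 normalized counts in the Kir2.1-OE pools and 159.5, 117.2 and 67.2 in the controls, with a log2 fold change of -1.41 (SE 0.315, adjusted p = 0.0050, edgeR). Oca2, a melanosomal anion channel gene, had 73.9, 97.9 and 55.01 against 151.5, 120.8 and 124.2, and a log2 fold change of -0.80 (SE 0.236, adjusted p = 0.018, edgeR). Both were called lower with no overlap of the groups. Oca2 was not called without Kir2.1-OE replicate 1 or without control replicate 1, where its adjusted p from edgeR was up to 0.060. Rab38, a GTPase for the delivery of enzymes to melanosomes, was at -0.56 (SE 0.208, adjusted p = 0.048, edgeR), under 1.5-fold. Mlph, the adaptor between melanosomes and myosin Va, was at 0.11 (SE 0.295, adjusted p = 0.78, edgeR), and the melanosomal exchanger gene Slc24a5 at 0.26 (SE 0.322, adjusted p = 0.53, edgeR). The remaining 4, Gpr143, Trpm1, Mc1r and Tspan10, were not tested. Tspan10 had 6.16, 1.999 and 5.29 normalized counts in the Kir2.1-OE pools and 29.1, 12.7 and 9.16 in the controls. The groups overlapped in the others. Gpr143 had 1, 3 and 1 reads in the Kir2.1-OE pools and 8, 2 and 3 in the controls. Trpm1 had 3, 3 and 8 reads against 5, 13 and 9, and Mc1r 1, 2 and 1 against 0, 1 and 4. In all, 2 of the 5 tested were called lower and none higher, against 5.08% and 15.5% of all genes. The median of the 5 was -0.56 against 0.01 over all genes. With the offsets these medians were -0.30 and -0.05, and 2 were again called lower.

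Melanosomes also rely on trafficking genes that most cells use. Of 23 such genes, all tested, none was called lower and 3 higher, with a median of -0.02. Over all genes 5.08% were called lower and 15.5% higher, so these counts are close to the background. Myo5a, the motor that carries melanosomes, and Lyst, a regulator of lysosome size, were at 1.48 (SE 0.199, adjusted p = 0.00042, edgeR) and 1.41 (SE 0.113, adjusted p = 0.00012, edgeR). Ap3d1, named after its value was seen, was at 0.68. Bloc1s5 and Bloc1s1, subunits of the BLOC-1 complex, had the lowest values, both -0.54. With the offsets, Myo5a was the one gene called higher, and Bloc1s5 at -0.84 the one called lower.

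Transcription factors of the lineage were read in the same way. Of 9 listed, 8 were tested, none was called lower and 2 were called higher, against 5.08% and 15.5% of all genes. With so few genes these counts cannot be set apart from the background. Zeb2 was at 1.09 (SE 0.113, adjusted p = 0.00017, edgeR) and Tfap2a, with few reads, at 1.14 (SE 0.420, adjusted p = 0.046, edgeR). Tfap2a was not called with the offsets (adjusted p = 0.076, edgeR), nor when any 1 pool but control replicate 2 was left out, with an adjusted p of up to 0.18 (edgeR). Sox10, which activates Mitf in melanocytes and is also made by glia, had a log2 fold change of 0.38 (SE 0.0698, adjusted p = 0.0018, edgeR), under 1.5-fold, and 0.11 with the offsets. Pax3 had between 0 and 4.01 normalized counts in any pool and was not tested. Lef1 and Tfe3 had values of 0.44 and 0.30, Snai2, Tfeb and Tfec of -0.09, -0.00 and -0.28, all under 1.5-fold. The median of the 8 was 0.34, and 0.12 with the offsets.

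The ligands of the receptors KIT and EDNRB did not differ detectably. Kitl, the KIT ligand, was at 0.01 (SE 0.0699, adjusted p = 0.93, edgeR), with 1789, 1995 and 1930 normalized counts in the Kir2.1-OE pools and 1910.2, 1837 and 1933 in the controls. Edn3, the EDNRB ligand that acts on melanoblasts, was at 0.04 (SE 0.106, adjusted p = 0.80, edgeR). Of 11 ligands and receptors listed, 10 had a row and were tested. Of these, 2 were called higher and none lower, against 15.5% and 5.08% of all genes. The genes called higher were Ece1, the enzyme that activates endothelins, at 1.35 (SE 0.127, adjusted p = 0.00015, edgeR), and the neuregulin receptor gene Erbb3 at 1.20 (SE 0.0771, adjusted p = 0.00010, edgeR). Both were also called higher with the offsets, at 0.88 and 0.64. Nrg1 had a value of 0.93 that missed the threshold (adjusted p = 0.053, edgeR), and Edn1, Ednra, Met, Hgf and Pomc lay between -0.13 and 0.44 without passing it. The median of the 10 was 0.15.

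Genes that mark the strial intermediate cells, the melanocytes of the cochlea, were also read apart from pigment. Of 6 listed, all tested, none was called lower and 3 were called higher, against 5.08% and 15.5% of all genes. Kcnj10, the K+ channel of intermediate cells that supporting cells and glia also carry, was at 0.79 (SE 0.108, adjusted p = 0.00046, edgeR), Nrp2 at 0.84 and Ptgds at 1.11. Kcnj13, another inward rectifier, had 681, 720.5 and 725 normalized counts in the Kir2.1-OE pools and 995, 818 and 991 in the controls, at -0.40 (SE 0.0980, adjusted p = 0.0079, edgeR), under 1.5-fold. Gsta4 was at -0.28 and Met at 0.21. The summed normalized counts of the 6 ranged from 30742 to 33766 in Kir2.1-OE and from 19150 to 23168 in control pools. With the offsets the median of the list moved from 0.50 to 0.17, Kcnj13 to -0.05, and Ptgds was the one gene called higher. The groups overlapped in Ptgds, with Kir2.1-OE replicate 2 at 2538 normalized counts and control replicate 2 at 3284. With TMM scaling alone its adjusted p was up to 0.096 (edgeR) with Kir2.1-OE replicate 1 or 3 or control replicate 1 or 3 left out, and it was then not called. Most of these genes are carried by other cochlear cells as well.

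Marker genes of neighbouring cell types were read for the same pools. Beside each count of calls here and below, 5.08% of all genes were called lower and 15.5% higher. Among 11 genes of strial marginal and basal cells, 8 were tested and none was called in either direction. Their median was 0.06, and their summed normalized counts were 32933 to 34283 in Kir2.1-OE and 28754 to 30742 in control pools. Slc12a2 and Kcnq1, of marginal cells, were at 0.40 and 0.34, and the basal cell tight junction gene Cldn11 at -0.21. With the offsets 1 of the 8, Lrp2, was called lower. Bsnd, a defining gene of marginal cells, had between 0 and 5.45 normalized counts in any pool.

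Mast cells also express Kit and Mitf. Of 7 mast cell genes, 4 were tested, and Ms4a2 was at 0 in all pools. Hdc, the histamine-forming enzyme, was called higher at 0.74 and the mast cell chymase Cma1, named after its value was seen, lower at -1.31, with 8.21 to 18.0 normalized counts in Kir2.1-OE and 20.9 to 38.1 in control pools. Cma1 was not called with the offsets, nor when Kir2.1-OE replicate 1 or 3 or control replicate 1 or 3 was left out, with an adjusted p of up to 0.087 (edgeR). The summed counts were 812 to 1187 and 641 to 772, most of them from Hdc, and the median was -0.95. Schwann cells arise from the same crest precursors and share Sox10, Erbb3 and Ednrb with melanocytes. All 8 Schwann cell genes were above 0, and 5 were called higher, with a median of 0.66. Prx and Egr2 had the highest values, 1.16 and 0.77, and Pmp22 the lowest, 0.39. With Kir2.1-OE replicate 3 left out, Egr2 and Cnp were at 0.56 and 0.52, under 1.5-fold. With the offsets 5 were again called higher, Pmp22 in place of Prx. Their summed counts were 382882 to 507955 in Kir2.1-OE and 269326 to 344399 in control pools. The part of these cells in the values of Mitf, Kit and Ednrb was not tested.

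The column header of the library taken as control replicate 1 carries another replicate number than its label, which was followed here. Control replicate 1, the highest pool in Dct, Tyr, Slc45a2, Gpnmb and Oca2, was also the highest in red blood cell genes. The summed normalized counts of 5 such genes were 10855 to 13789 in Kir2.1-OE and 17918 to 44665 in control pools, the highest in control replicate 1. Of these 5 genes, 3 were called lower (Hbb-bt at -1.22, Hba-a1 at -1.18 and Alas2 at -1.02), Hba-a2 was at -0.85, and the median was -1.02. With the offsets none of the 5 was called. Without control replicate 1, Hba-a1 and Alas2 were at -0.56 and -0.48 and were not called, and Alas2 was not called without Kir2.1-OE replicate 2 either (adjusted p = 0.066, edgeR). Without control replicate 1 the log2 fold changes of Dct and Slc45a2 were -1.66 (adjusted p = 0.0014, edgeR) and -1.77 (adjusted p = 0.016, edgeR), and both were still called lower. Gpnmb was still called too, whereas Tyr and Oca2 were not. Pmel, Tyrp1 and Mlana were highest in control replicate 3.

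**Figure D4:**
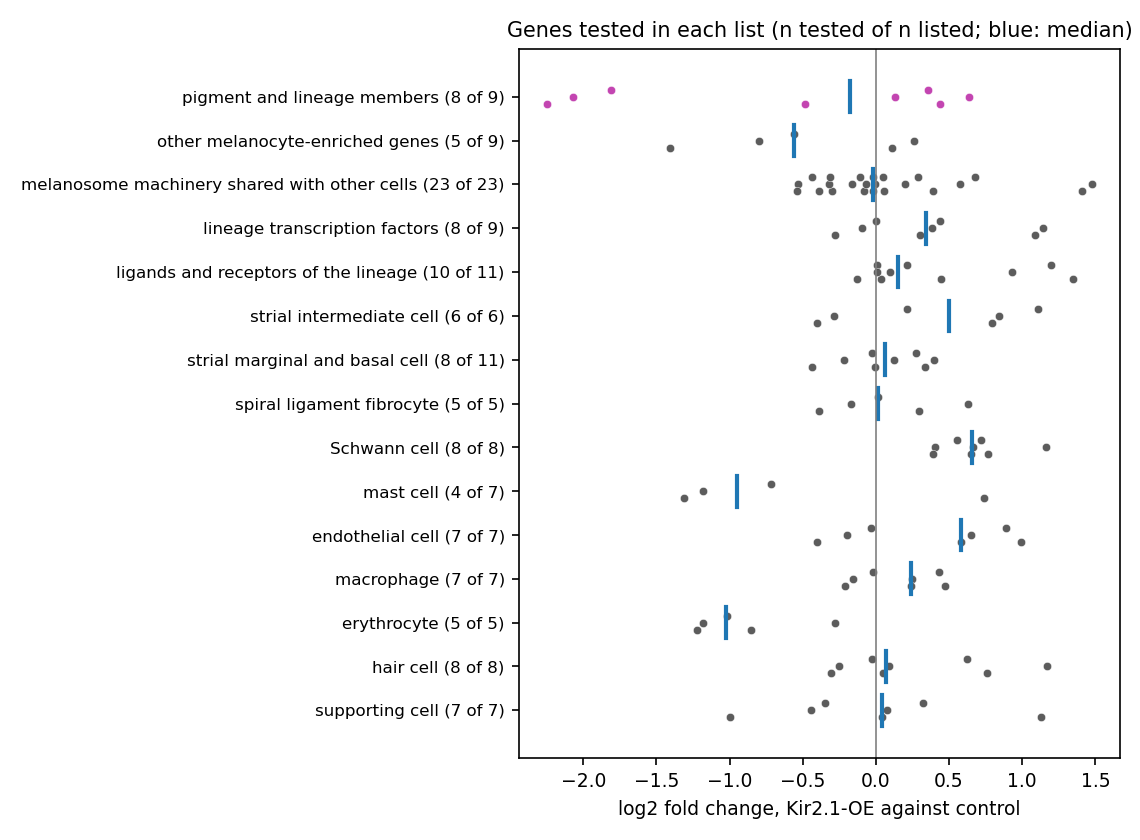
Log2 fold changes (horizontal axis) of the genes tested in each list, 1 point per gene, with the list's median in blue. The vertical axis gives the list and how many of its genes were tested. The 3 lowest values of all lists are the members Slc45a2, Tyr and Dct at -2.25, -2.07 and -1.81, the Schwann cell genes all lie above 0 and the red blood cell genes all below it.

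The genes whose pattern over the 6 pools was most like that of the pigment genes were found by the root mean square difference of centred log2 CPM from the mean profile of Dct, Tyr, Tyrp1, Pmel and Slc45a2. Among 13640 genes whose normalized counts averaged at least 50, the nearest were Bpifb3 (0.125), Fam83a (0.126), Lhfpl1 (0.146), Slc16a3 (0.166) and Tmem255a (0.196). Their log2 fold changes were -1.14, -1.40, -1.23, -1.25 and -1.17, and all were called lower. These genes were picked for nearness to a profile that is itself lower in Kir2.1-OE pools, so their calls are no separate result. Among the pigment genes themselves, Dct had the smallest difference from the mean profile at 0.292 and Tyrp1 the largest at 0.789. The profile ran from the lowest values in Kir2.1-OE replicate 1 to the highest in control replicate 1, with a centred log2 CPM of -1.16 and 0.94.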

How the data were processed

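RNA of P9 cochlear sensory epithelium was sequenced by the study from 3 Kir2.1-OE and 3 control pools. The study enriched poly(A) RNA, sequenced 150 bp read pairs, mapped them to mm10 in the nf-core RNA pipeline and had Salmon estimate the reads of each gene. Tool versions, annotation and strand setting are not given in the sources used here. The authors deposited expected counts, which are estimates and can be fractional (6.95% were), without division by length or depth. The members and all gene lists were chosen with earlier results of these data known.

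After rounding, the counts entered edgeR 4.0.16 (R 4.3.3; TMM factors of 0.984 to 1.01, filterByExpr, quasi-likelihood test, Benjamini-Hochberg adjustment), with all 6 libraries in 1 model. SEs are the log2 fold change divided by the root of F. No pair of libraries in a group agreed within sampling noise (chi-square per degree of freedom 15.7 to 31.1). The labels do not say whether pools share litters, so p-values measure the spread between these pools. Gene symbols were matched to GENCODE vM21 on mm10, 23376 by symbol and 668 by an older symbol of 24411. Lengths and GC content are those of the longest protein-coding transcript. Offsets came from a loess trend with span 0.4 per library. On simulated data with 15208 genes tested, the model called 85.3% of 95 genes changed by a log2 value of 1, 99% of 105 changed by 1.8, and 5 unchanged genes. The changed genes were drawn above a count minimum, dispersions came from the fitted trend, and no trend with length was put in. These rates need not hold in the libraries themselves, in which fold change went with length.

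The genes named were the members, Kcnj2, the genes of the lists of other melanocyte-enriched genes, lineage transcription factors, ligands and receptors and strial intermediate cells, the 2 highest and 2 lowest log2 fold changes among genes averaging at least 50 normalized counts in each other list, and the 5 genes nearest in profile. Genes outside this rule are marked as such where they are named, or complete a count. Some genes that the rule names are not reported here. Alternatives were other scalings, filters and thresholds, unrounded counts, DESeq2 1.42.0, limma-voom (limma 3.58.1), a replicate block, the offsets and each library left out in turn. Offsets from the longest transcript of any type were chosen after seeing the data. Promoter windows were found for 6 of the 9 members. Asip had no row, and protein sequences were not used here.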

Additional observations from a re-analysis of the deposited data

How the results depend on the processing

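Dct kept its direction and its call in 20 of 20 alternatives and Slc45a2 in 19 of 19. With at least 10 counts in every library, Tyr and Slc45a2 gave no value and 1 member was called lower. Tyr lost its call in 4 of 19 alternatives, the 3 single-pool omissions given above and glmTreat, which tests for a log2 change over 0.6 (adjusted p = 0.14, edgeR). The number of members called lower was between 2 and 3 when 1 pool was left out. The number called higher was 0 with upper quartile scaling, with the offsets in each form (protein-coding transcript, with replicate block, transcript of any type) and with glmTreat, 2 with no fold change threshold, and between 0 and 1 when 1 pool was left out. Mitf lost its call in 6 of 20 alternatives and kept its direction in all. Pmel and Kit passed with no fold change threshold. Calls among the other melanocyte-enriched genes numbered 1 with the offsets and replicate block, 0 with glmTreat, and between 1 and 4 when 1 pool was left out: 1 without Kir2.1-OE replicate 1 or control replicate 1, and 4 without Kir2.1-OE replicate 3. Tyrp1 turned to -0.10 without Kir2.1-OE replicate 3 and to -0.05 without control replicate 2, within a range of -0.10 to 0.47 over the 6 pools left out. The causes of these shifts were not tested.

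Replicate numbers did not pair the samples: deviations of same-numbered pools correlated at -0.106, -0.232 and -0.213. The header of the library labelled control replicate 1 carries another number, so the numbers may not be those of the preparation. With the replicate block, 3 members were called lower and 1 higher, and 718 genes were lower and 2220 higher overall. Over all genes the main counts were 778 lower and 2365 higher. They were 1378 and 1897 with upper quartile scaling, 57 and 832 with glmTreat, 486 and 860 with the offsets and 519 and 985 with those from any transcript. Depth limits Mlana, Tyr, Slc45a2 and Tspan10, which had few reads in Kir2.1-OE pools.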

Other observations

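Other cell types of the dissected tissue were read from marker lists that share no gene with the pigment set. Among 8 hair cell genes 3 were called higher, Myo7a at 1.17, Otof, whose promoter drives the activator, at 0.76, and Slc26a5, named after its value was seen, at 0.62. Ocm and Gfi1 had the lowest values, -0.30 and -0.25, and the median was 0.07. With the offsets Myo7a and Otof were at 0.29 and -0.08 and were not called. With TMM scaling alone Slc26a5 was under 1.5-fold without Kir2.1-OE replicate 1 or 2 or control replicate 2, down to 0.46. Among 7 supporting cell genes Prox1 was called higher at 1.13, the next highest was Fgfr3 at 0.32, and Lfng and Tecta were lowest at -0.44 and -1.004. Tecta had 6197, 7758 and 8110 normalized counts in the Kir2.1-OE pools and 25995, 12005 and 6264 in the controls, so that its groups overlapped. The median of the 7 was 0.04. With the offsets Prox1 was at 0.57 and was not called, and Tecta was called lower at -1.76.

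Among 7 endothelial genes, 3 were called higher (Cdh5 at 0.99, Kdr at 0.89 and Pecam1 at 0.65), Egfl7 and Emcn were lowest at -0.40 and -0.20, and the median was 0.58. With the offsets Kdr and Pecam1 were at 0.41 and 0.55 and Cdh5 was the one gene called. Pecam1 was also under 1.5-fold, at 0.48, without control replicate 1. None of 7 macrophage genes was called. Csf1r and Lyz2 were at 0.47 and 0.43, and Adgre1 and C1qa at -0.16 and -0.21, with a median of 0.24. With the offsets Lyz2 was called higher at 0.77. Of 5 spiral ligament fibrocyte genes, Coch was called higher at 0.63, Pou3f4 was at 0.30, and Otos and Car3 at -0.17 and -0.39. Their median was 0.01. Coch was not called without Kir2.1-OE replicate 1 or 2 or control replicate 1 or 2, with a log2 fold change down to 0.44 and an adjusted p of up to 0.078 (edgeR).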
